A study of Homo sapiens with 6 samples.

Results

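Of the 6 cultures in the series, the 2 that the labels number 2 (shJUP 2 and shNC 2, 1 from each hairpin group) are described here against the 4 cultures numbered 1 and 3. All 6 are SKOV3, an established ovarian carcinoma line of human origin that carries high ERBB2. The shJUP cultures are labelled as a knockdown of JUP by short hairpin RNA, and the shNC cultures carry the control hairpin. JUP encodes plakoglobin, a catenin of desmosomes and adherens junctions. No culture without a hairpin was analysed here, so whatever the hairpin constructs have in common is shared by every library. Not given in the sources used here are the hairpin sequence, the vector, whether a culture was a pool or a clone, and what a culture number stands for (a day, a passage, an operator or a plate).

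The number-2 cultures were chosen by their measured expression: earlier results of these same data had set them apart. Their difference from the other 4 is therefore a description: the edgeR fit of that contrast is used only to size and rank it, and its calls and standard errors are not evidence that the cultures differ. Beyond the chosen contrast, the fits tested whether the difference itself differs between shJUP and shNC (the interaction of number and hairpin). They also tested the effect of the hairpin once number 2 is accounted for. The residual spread in both is what remains after number 2 is set apart, so the choice may have made their p-values too small. The labels call the replicates independent, and 1 library in each hairpin group has number 2, so there is no spread between number-2 libraries within a group.

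The 5 genes that mark these cultures (C3, CP, CFB, MMP7 and PTGS2) are secreted or inflammatory genes. Complement is a cascade of secreted proteases in which C3 is the central component and factor B (CFB) forms the alternative pathway convertase. Acute phase proteins such as ceruloplasmin (CP), serum amyloid A and lipocalin 2 are secreted mainly by the liver, but also by inflamed epithelia and by many carcinomas. NF-kB, STAT, C/EBP and interferon-regulated factors are the textbook regulators of these genes, and matrilysin (MMP7) and cyclooxygenase 2 (PTGS2) are known inflammatory genes of epithelial tumours.

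Across the 15867 tested genes, the 2 number-2 libraries lay on the same side of the leading axis of variation. The first principal component of log2 CPM (counts scaled to the TMM-adjusted library total) held 44.8% of the variance. On it, shJUP 2 scored 26.5 and shNC 2 scored 62.5, whereas shJUP 1 and 3 scored -32.1 and -35.0 and shNC 1 and 3 scored -16.2 and -5.8. The number-2 libraries were thus the only ones of the 6 with a positive score. The median absolute difference between shJUP 2 and shNC 2 was 0.23 log2 units, with 1010 genes at least 2-fold apart. Against its own hairpin group shJUP 2 differed more, by 0.283 from shJUP 1 and 0.273 from shJUP 3, and shNC 2 differed by 0.328 from shNC 1 and 0.289 from shNC 3. The likeness was not complete, since shJUP 2 was as near to shNC 3 (0.229) as to shNC 2. The closest of all 15 pairs was shNC 1 with shNC 3, at 0.151.

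**Figure D1:**
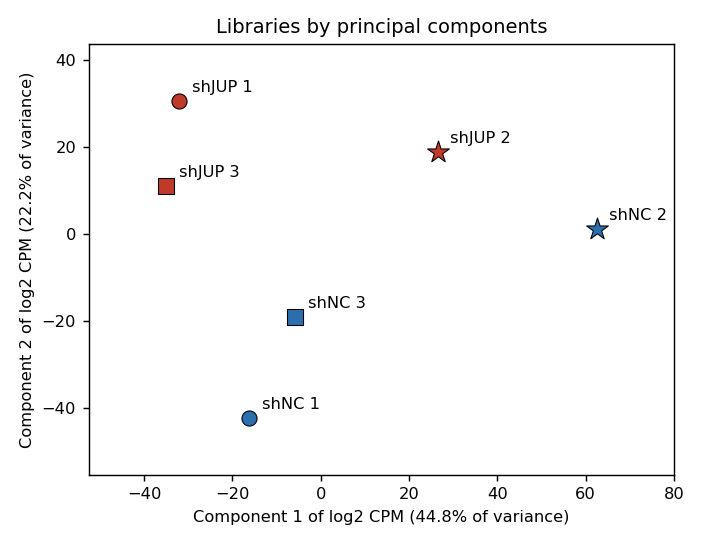
Scores of the 6 libraries on the first and second principal components of log2 CPM over 15867 genes (44.8% and 22.2% of the variance); each point is 1 library, coloured by hairpin group, with stars for number 2. Both number-2 libraries sit to the right of 0 on the first component (26.5 and 62.5) and the other 4 to the left.

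A gene was called concordant when number 2 was at least 2-fold from the mean of numbers 1 and 3 in the same direction in both hairpin groups, and outside their range in both. By this measure 404 genes were higher in the number-2 cultures (2.55% of those tested) and 99 were lower (0.624%). With no minimum size, 4099 genes (25.8%) lay above both other cultures in each group and 4121 (26.0%) below. In the edgeR fit with the hairpin as covariate, 1170 genes passed an adjusted p of 0.05 as higher (7.37%) and 696 as lower (4.39%). Those counts size the contrast that chose the cultures and support nothing by themselves. They also rest on few libraries: the 1866 genes in total became 91 without shNC 2, 551 without shJUP 2, 235 without shNC 1 and 369 without shNC 3. A block for the culture number left 969 (672 higher, 297 lower).

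Of the 404 higher genes, 166 had a mean over the 6 libraries of at least 5 CPM, 17 of at least 100 CPM, and 92.3% were protein coding. Of the 99 lower genes 16 reached 5 CPM, 3 reached 100 CPM, and 52.5% were protein coding, beside 83.4% of all tested genes. The mean includes the number-2 libraries, so the direction of the difference itself moves these counts.

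The 5 genes used to mark the number-2 cultures were each far above both other cultures in both hairpin groups. C3 measured 41.6, 556 and 91.9 CPM in shJUP (cultures 1, 2 and 3, the order used throughout), against 29.2, 587 and 75.0 CPM in shNC. CP, the copper-carrying ferroxidase of plasma, had 4.46, 106 and 1.75 CPM in shJUP, against 7.85, 515 and 17 CPM in shNC. CFB had 5.86, 50.5 and 3.82 CPM against 9.06, 119 and 12.1 CPM. In each case the level of number 2 was several times that of its neighbours, and numbers 1 and 3 resembled one another more than either resembled number 2. MMP7, a small secreted matrix protease, measured 0.502, 15.9 and 0.956 CPM in shJUP and 3.98, 106 and 5.28 CPM in shNC. PTGS2, the inducible enzyme of prostaglandin synthesis, measured 5.8, 44.2 and 5.2 CPM and 6.36, 76.4 and 13.1 CPM. No marker's number-2 value overlapped with the other libraries of its group. In bulk RNA, more cells that carry a transcript and more of it per cell cannot be told apart.

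**Figure D2:**
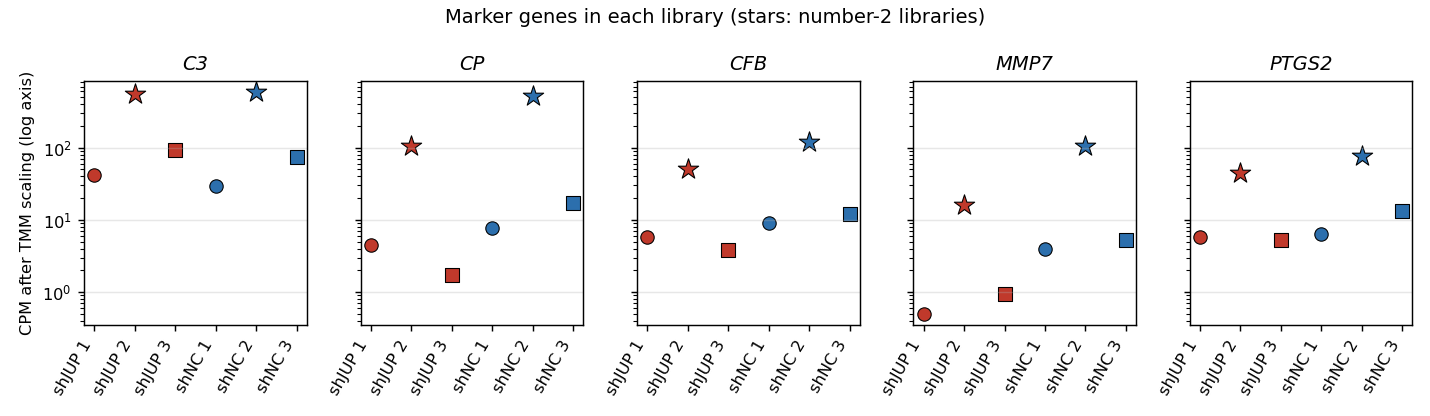
CPM on a log axis for C3, CP, CFB, MMP7 and PTGS2 in each of the 6 libraries; each point is 1 library, with stars for number 2. In all 5 genes and both hairpin groups the number-2 point lies above the other 2, with CP at 106 and 515 CPM against 1.75 to 17 CPM elsewhere.

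Expressed as log2 differences of number 2 over numbers 1 and 3, adjusted for the hairpin, CP led with 5.25 (SE 0.34), then MMP7 with 4.49 (SE 0.18), CFB with 3.44 (SE 0.17), C3 with 3.28 (SE 0.40) and PTGS2 with 2.99 (SE 0.24). The differences within the groups were close to each other. They were 5.18 in shJUP and 5.47 in shNC for CP, 4.31 and 4.51 for MMP7, 3.39 and 3.49 for CFB, 3.17 and 3.64 for C3, and 2.98 and 3.05 for PTGS2. The interaction of number and hairpin ranged from -0.44 (SE 0.85) for C3 to 0.04 (SE 0.51) for PTGS2, with edgeR adjusted p from 0.98 to 1.0. These standard errors leave room for differences between the groups of about the size of the SE or more.

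The promoters of CFB, MMP7 and PTGS2 are shown. These are the 3 of the 5 markers that matched the promoter table, and each holds a searched motif. The sequences are from RefSeq on GRCh38.p14 and cover the 250 bases before the annotated start, 5′ to 3′ on the gene's own strand, with motif matches in capitals: CFB at chr6:31945845-31946094 (plus strand), MMP7 at chr11:102530748-102530997 (minus strand) and PTGS2 at chr1:186680424-186680673 (minus strand).
CFB: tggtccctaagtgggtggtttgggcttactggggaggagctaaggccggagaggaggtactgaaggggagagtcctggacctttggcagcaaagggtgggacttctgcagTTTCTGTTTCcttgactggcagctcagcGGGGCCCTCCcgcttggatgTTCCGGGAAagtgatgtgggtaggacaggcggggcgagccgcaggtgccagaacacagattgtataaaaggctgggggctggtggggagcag
MMP7: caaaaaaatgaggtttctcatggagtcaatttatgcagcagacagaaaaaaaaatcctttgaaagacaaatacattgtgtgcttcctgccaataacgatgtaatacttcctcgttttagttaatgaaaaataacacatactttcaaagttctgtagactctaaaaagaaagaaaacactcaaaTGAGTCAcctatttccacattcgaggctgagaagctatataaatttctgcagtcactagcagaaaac
PTGS2: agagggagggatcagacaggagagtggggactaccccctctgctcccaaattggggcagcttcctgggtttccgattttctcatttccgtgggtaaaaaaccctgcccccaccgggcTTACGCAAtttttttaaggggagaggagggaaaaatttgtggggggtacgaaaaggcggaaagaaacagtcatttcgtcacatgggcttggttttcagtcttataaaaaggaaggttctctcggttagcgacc
In CFB the capitals mark, in order, a match to the interferon-stimulated response element on the reverse strand (bases -140 to -131), one to the NF-kB consensus (-112 to -103) and one to the STAT motif TTCNNNGAA (-92 to -84). MMP7 holds the AP-1 motif TGANTCA at -67 to -61, and PTGS2 the C/EBP motif TTGCNNAA on the reverse strand at -133 to -126. A match is a string of letters, not evidence of a bound factor. Among promoters of 300 bases (250 before to 50 after the start), searched on both strands, the NF-kB consensus occurred in 14.6% of 261 concordant higher genes, 10.9% of 46 concordant lower genes and 12.9% of all 11403 tested genes with a promoter in the table. The interferon-stimulated element occurred in 6.13%, 0.0% and 2.82% of those promoters, C/EBP in 10.3%, 6.52% and 7.06%, STAT in 9.2%, 13.0% and 6.42%, and AP-1 in 6.51%, 8.7% and 4.82%. TEAD (GGAATG) occurred in 11.1%, 13.0% and 11%, and the hypoxia response element (ACGTG) in 20.3%, 23.9% and 26.4%. Median GC content also differed, at 62.3%, 60.2% and 65.0%, and its part in these shares was not tested.

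Beyond C3 and CFB, several complement genes were higher in the number-2 cultures. Of 22 listed components and regulators 17 could be tested. Of these, 8 were concordant higher, the markers C3 and CFB among them, and none lower (2.55% and 0.624% of all genes). The fitted difference was above 0 for 11 and below 0 for 6. Median log2 differences, markers included, were 1.03 within shJUP and 0.79 within shNC, beside 0.0 and -0.01 over all tested genes. CFI, the protease that inactivates C3b, measured 0.167, 1.33 and 0.106 CPM in shJUP and 0.553, 12.1 and 0.979 CPM in shNC (log2 3.75, SE 0.33). C1R, a protease of the classical pathway, measured 1.9, 12.3 and 2.34 CPM and 3.81, 30.9 and 5.6 CPM (log2 2.63, SE 0.19). Other concordant members included C1S, C1RL and SERPING1, which are proteases of the classical pathway, a related protease and an inhibitor of C1. The membrane regulators CD55, CD46 and CD59 differed by 0.58, 0.35 and -0.06 log2 units, and none was concordant.

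Acute phase and iron-handling secreted proteins, a list that includes CP, had the largest median difference of the program lists after the markers themselves, 2.14 within shJUP and 1.80 within shNC. Only 10 of its 21 members were testable, which favours genes that are high somewhere. Of these, 5 were concordant higher, the marker CP among them (2.55% of all genes were). SAA1, a lipid-binding acute phase protein, measured 0.837, 16.9 and 1.43 CPM in shJUP and 0.774, 11.5 and 2.23 CPM in shNC. LCN2, which sequesters bacterial siderophores, measured 3.91, 10.6 and 0.637 CPM and 0.442, 19.5 and 1.31 CPM. SERPINA3 (antichymotrypsin) measured 0.0558, 2.4 and 0.265 CPM and 1.6, 15.7 and 1.03 CPM. Number 2 was the highest of its group in each, as the definition of concordant requires. SAA1 shares much of its sequence with SAA2, so reads may have been split between them. The 10 liver cell markers summed to at most 0.637 CPM in any library, and none reached 1 CPM.

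Signals between cells followed in part. IL33, an alarmin of the interleukin 1 family, measured 0.223, 4.27 and 0.372 CPM in shJUP and 0.995, 14.3 and 1.52 CPM in shNC. TNFSF10, the death ligand TRAIL, measured 0.781, 39.7 and 1.27 CPM and 9.95, 86.1 and 27.1 CPM. IL1B, a pyrogenic cytokine, measured 18.2, 119 and 16.9 CPM and 24.7, 70.4 and 44.1 CPM. All 3 were named as concordant, and so lay above their neighbours in both groups. TNFSF10 and IL1B did so by more in shJUP (log2 5.17 and 2.75) than in shNC (2.38 and 1.09), an interaction with edgeR adjusted p of 0.62 and 0.58. Of the 16 tested cytokines 5 were concordant higher (2.55% of all genes). Of 10 tested chemokines only CXCL2, a neutrophil attractant, was concordant, with 50.2, 119 and 58.9 CPM against 32.7, 96.6 and 34.7 CPM.

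Among NF-kB factors and their feedback genes, 4 of 21 were concordant higher and 1 lower (2.55% and 0.624% of all genes). SOD2, the mitochondrial superoxide dismutase, measured 433, 1440 and 359 CPM in shJUP and 349, 1240 and 493 CPM in shNC. BIRC3, an inhibitor of apoptosis, measured 59.6, 234 and 102 CPM and 61.8, 181 and 72.9 CPM. TNFAIP2, another gene induced by TNF, measured 88.3, 247 and 74.9 CPM and 142, 310 and 122 CPM. TRAF1, an adaptor of TNF receptors, went the other way, with 6.92, 3.31 and 8.44 CPM and 2.1, 0.85 and 2.34 CPM. The subunit genes RELA, NFKB1, NFKB2, REL and RELB, named after their values were seen, differed by -0.04, 0.01, -0.01, 0.10 and 0.26 log2 units, and none was concordant.

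Antigen presentation through MHC class I was higher to a similar degree in both groups, mostly by less than 2-fold. All 19 tested members had a difference above 0, and 15 of 19 lay above both other cultures in each group (25.8% of all genes did). The medians were 0.78 within shJUP and 0.80 within shNC, and 3 were concordant. HLA-B, a heavy chain, measured 75.4, 177 and 86.7 CPM and 85.8, 299 and 140 CPM. The immunoproteasome subunit PSMB9 measured 3.07, 5.65 and 1.81 CPM and 3.87, 12.5 and 4.79 CPM, and PSMB8 measured 11.8, 30.3 and 17.8 CPM and 18.7, 51.3 and 21.7 CPM. HLA heavy chain genes resemble each other, so their separate values are less certain than their common direction. IDO1, the tryptophan-degrading enzyme, measured 3.24, 48.3 and 4.62 CPM and 11.7, 74.4 and 10.7 CPM. GBP2, a GTPase induced by interferon gamma, measured 0.558, 9.66 and 1.06 CPM and 1.55, 22.3 and 2.83 CPM.

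Prostaglandin genes, matrix proteases and secreted or membrane-bound protease inhibitors included further concordant genes. PLA2G4A, the cytosolic phospholipase that releases arachidonic acid, measured 2.01, 10.6 and 1.17 CPM in shJUP and 2.65, 17.9 and 4.08 CPM in shNC. Of 16 tested prostaglandin genes 3 were concordant higher, the marker PTGS2 among them (2.55% of all genes were). MMP13, collagenase 3, measured 62.9, 138 and 12.7 CPM and 36.2, 393 and 75.9 CPM. MMP14, a membrane-bound protease, was lower, with 3.01, 1.17 and 2.34 CPM and 2.82, 0.797 and 1.74 CPM. Of 16 tested metalloproteinases and inhibitors 3 were concordant higher, the marker MMP7 among them, and 1 lower (2.55% and 0.624% of all genes). SLPI, a secreted inhibitor of neutrophil elastase, measured 26.8, 115 and 23.1 CPM and 40.5, 225 and 46.6 CPM. SPINT1, an inhibitor of membrane serine proteases, measured 2.4, 9.87 and 1.75 CPM and 1.6, 8.71 and 1.9 CPM. Number 2 exceeded each neighbour by more than 3-fold in both inhibitors.

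Several genes of epithelial identity were higher as well. The ETS factor EHF measured 13.7, 76.7 and 13.4 CPM in shJUP and 37.6, 125 and 31.9 CPM in shNC. Its relative ELF3 measured 13.2, 67.8 and 14.8 CPM and 27.1, 101 and 35.9 CPM. EPCAM, an epithelial adhesion molecule, measured 1.51, 4.21 and 1.54 CPM and 1.71, 4.62 and 1.25 CPM. Of 21 tested adhesion and polarity genes 6 were concordant higher and none lower (2.55% and 0.624% of all genes). Keratins and mucins did not follow, with medians of -0.25 and 0.04 and 1 concordant gene, KRT16, which was lower. SNAI2 (Slug), a repressor of epithelial genes, was lower, with 171, 84.8 and 175 CPM and 143, 50.5 and 170 CPM. It was the only concordant gene of 20 on the mesenchymal list.

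Metabolic genes contributed a few large differences. DHRS3, which reduces retinal to retinol, had the largest fitted difference of the genes named by rule (log2 6.73, SE 0.62): it measured 0.0558, 3.36 and 0.106 CPM in shJUP and 0, 40.0 and 0.544 CPM in shNC. The size of a fold from levels near 0 depends on the prior count. The aldo-keto reductases AKR1C1 (73.7, 177 and 42.8 CPM; 50.3, 103 and 41.0 CPM) and AKR1C3 (94.7, 216 and 92.4 CPM; 87.5, 196 and 89.2 CPM), which act on steroids and prostaglandins, were higher in both groups. Genes of this family resemble each other in sequence, which makes the split of reads between them uncertain. TCIM, a small regulator of Wnt signalling, measured 13.2, 122 and 10.4 CPM and 28.4, 296 and 36.9 CPM.

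Of 29 tested immediate early and ERK feedback genes, which respond quickly to growth factors or handling, 15 lay above both other cultures in each group and 5 below (25.8% and 26.0% of all genes), and 4 were concordant higher (2.55% of all genes). FOS measured 48.3, 297 and 159 CPM in shJUP and 48.8, 570 and 168 CPM in shNC. EGR1 measured 119, 490 and 272 CPM and 96.9, 798 and 264 CPM. FOSB measured 5.52, 63.2 and 62.3 CPM and 5.42, 126 and 53.9 CPM, so in shJUP numbers 2 and 3 were nearly equal. For these 3 genes number 1 was the lowest, number 3 intermediate and number 2 the highest in both hairpin groups.

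Proliferation genes were lower in number 2 by small amounts. Of 41 tested genes of mitosis and G2/M, 30 lay below both other cultures in each group (26.0% of all genes did) and 1 above, with medians of -0.19 in shJUP and -0.46 in shNC. Of 44 genes of DNA replication and G1/S, 31 lay below and 1 above, with medians of -0.21 and -0.47. No gene of either list was concordant at 2-fold. FOXM1, a transcription factor of G2, measured 87.2, 64.7 and 91.3 CPM and 89.4, 46.4 and 88.6 CPM. RRM2, a subunit of ribonucleotide reductase, measured 307, 212 and 355 CPM and 303, 109 and 265 CPM. ANLN, an actin-binding protein of the cleavage furrow, measured 533, 358 and 440 CPM and 357, 162 and 362 CPM. On the list of cell cycle inhibitors and quiescence genes, 11 of 22 lay above both others in each group and 5 below (25.8% and 26.0% of all genes). BTG2, an antiproliferative gene, was concordant higher with 1.28, 4.11 and 1.33 CPM and 1.77, 3.67 and 1.52 CPM.

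Chaperones and YAP/TAZ targets were also on the lower side. Of 19 heat shock genes 10 lay below both other cultures in each group (26.0% of all genes), with medians of -0.30 and -0.56. HSPA8, the constitutive HSP70, measured 2300, 984 and 1390 CPM in shJUP and 1460, 653 and 1110 CPM in shNC. HSPA5, the chaperone of the endoplasmic reticulum, measured 2230, 958 and 983 CPM and 1300, 705 and 1140 CPM, so in shJUP it was number 1 that stood apart. Of 25 tested YAP/TAZ targets 12 lay below both others in each group and 2 above (26.0% and 25.8% of all genes), with medians of -0.23 and -0.39. ANKRD1, a nuclear ankyrin repeat protein, measured 8.98, 5.33 and 9.4 CPM and 2.43, 0.478 and 4.14 CPM.

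The largest lower difference among the concordant genes named by rule was that of NPIPB13, with 7.59, 2.72 and 6.53 CPM in shJUP and 12.1, 0.212 and 6.64 CPM in shNC, but it belongs to a family of near-identical copies. AOX1, an aldehyde oxidase, measured 18.5, 6.51 and 10.7 CPM and 4.53, 1.22 and 8.0 CPM. The genes without a symbol, ENSG00000261786 (-1.69) and ENSG00000259529 (-1.68), followed ADAMTS6 (-1.83). ADAMTS1, a protease of proteoglycans, measured 393, 194 and 402 CPM in shJUP and 241, 92.3 and 327 CPM in shNC. ADAMTS6 measured 29.8, 5.87 and 10.1 CPM and 11.6, 3.93 and 17.8 CPM. SPHK1, which makes sphingosine 1-phosphate, measured 22.6, 11.8 and 32.6 CPM and 23.2, 6.32 and 24.0 CPM. In all of these genes the number-2 library was the lowest of its group, as the definition of concordant requires. The same held for SEMA7A, a membrane-anchored semaphorin (60.2, 27.7 and 53.9 CPM; 39.1, 13.4 and 39.6 CPM), and for PTHLH, the parathyroid hormone-related peptide (45.6, 16 and 24.7 CPM; 18.4, 8.61 and 24.1 CPM). ZNF542P, a zinc finger pseudogene, measured 210, 72.8 and 158 CPM and 211, 51.8 and 166 CPM.

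Many other programs were near the median of all genes. Medians of the number-2 difference, fitted over both hairpin groups, lay between -0.17 and 0.16 for cholesterol synthesis, fatty acid synthesis, glycolysis, nuclear oxidative phosphorylation, Wnt/beta-catenin targets, Notch, apoptosis regulators and ribosomal proteins. Some of these split by group: glycolysis had medians of 0.32 within shJUP and -0.13 within shNC, and Wnt/beta-catenin targets -0.11 and 0.24. Ribosomal protein genes lay above both other cultures in each group in 34 of 71 cases (25.8% of all genes), with a median of only 0.16. The hypoxia list had a fitted median of 0.31, with 0.63 within shJUP and 0.16 within shNC, and 2 concordant higher members of 27 (2.55% of all genes). CA12, a membrane carbonic anhydrase on that list, measured 57.9, 154 and 14.9 CPM and 62.2, 137 and 72.6 CPM.

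**Figure D3:**
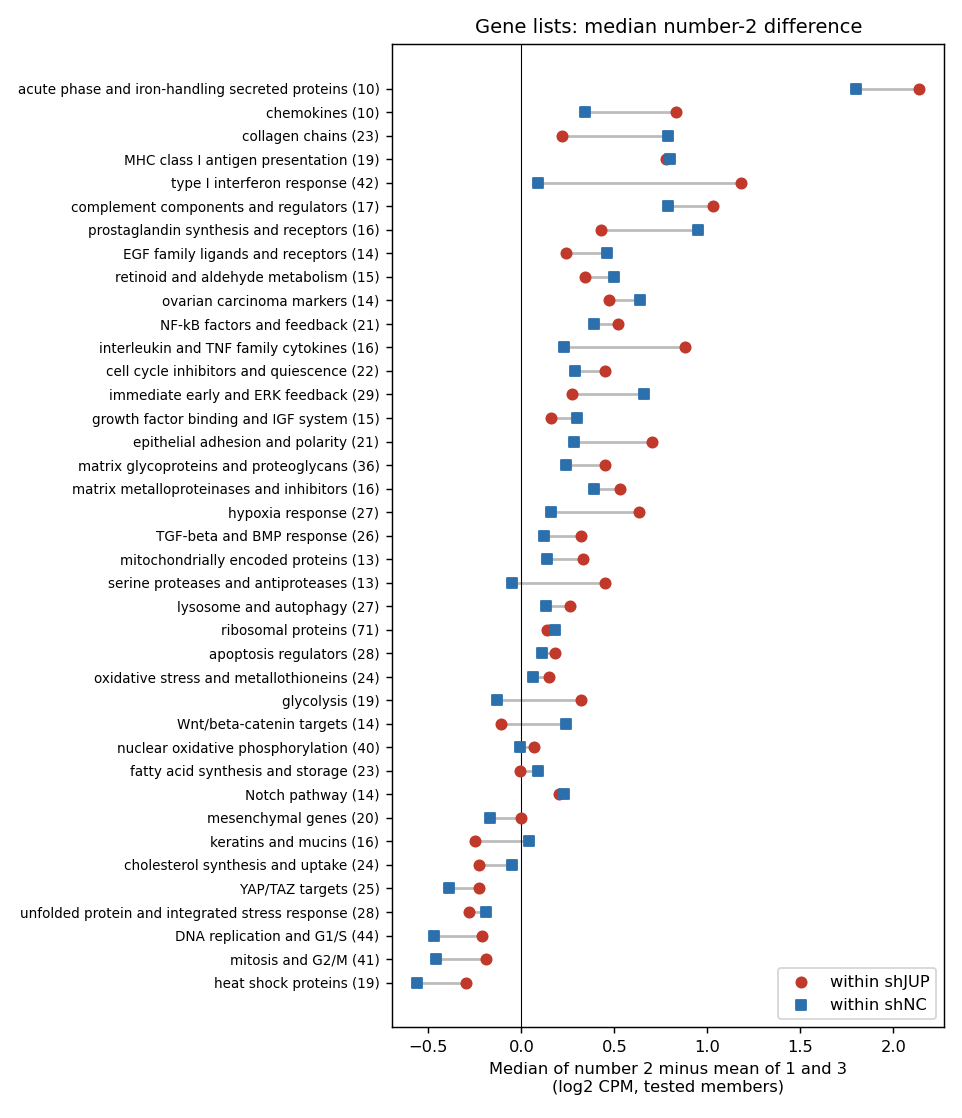
Median log2 difference of number 2 from the mean of numbers 1 and 3 over the tested members (number in parentheses) of each program list with at least 10 of them; circles are shJUP and squares shNC. Acute phase genes (2.14 and 1.80) and complement (1.03 and 0.79) are on the positive side in both groups and heat shock genes (-0.30 and -0.56) on the negative side, while the type I interferon list is split (1.18 and 0.09).

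The difference was also read within each hairpin group. Within shJUP alone, 848 genes (5.34%) were at least 2-fold higher in number 2 and outside the range of the other 2, and 354 (2.23%) were lower. Within shNC, 1047 (6.6%) were higher and 503 (3.17%) lower. Of the genes higher in shJUP, 47.6% were also higher in shNC, and of those higher in shNC, 38.6% were also higher in shJUP. The shares were 28.0% and 19.7% for lower genes. Of the 15867 tested genes, 53 were 2-fold outside in opposite directions. With no minimum size, 8220 were on the same side in both groups (25.8% of all genes higher, 26.0% lower) and 1939 on opposite sides. The number-2 cultures of both groups were chosen because they stood apart. These overlaps and counts may therefore come from the choice and are a description only.

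Tested gene by gene, the interaction of number and hairpin gave no gene past an adjusted p of 0.05 in edgeR (0 of 15867, 0.0%), with a smallest adjusted p of 0.18, and 958 genes (6.04%) at an unadjusted p below 0.05. limma-voom also called 0. DESeq2 called 50 of the 15867 genes, of which 41 had a positive interaction (number 2 relatively higher, or less low, in shJUP than in shNC). The type I interferon list, chosen with earlier results known, holds 42 of the 15867 tested genes and 10 of the 50 called by DESeq2. The interaction fit has 2 residual degrees of freedom with all libraries in, and fewer when any is left out. It called 32 genes without shJUP 1 and 139 without shJUP 3.

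**Figure D4:**
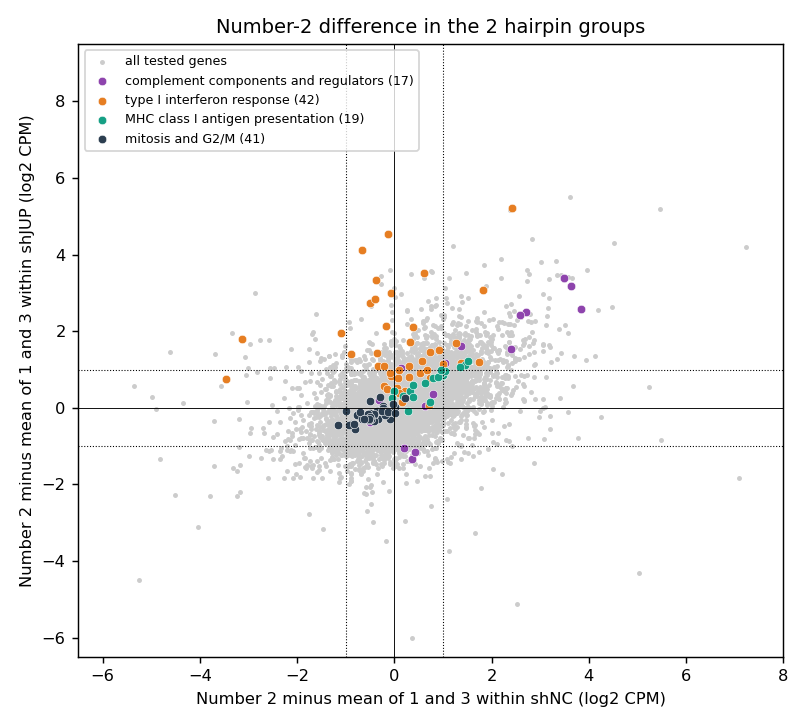
For each of 15867 tested genes, the difference of number 2 from the mean of numbers 1 and 3 within shNC (x axis) and within shJUP (y axis), both in log2 CPM; dotted lines mark 2-fold, and coloured points are members of 4 lists. Complement and MHC class I genes spread along the diagonal, mitosis genes cluster just below 0 on both axes, and interferon genes rise on the shJUP axis (median 1.18) with little shift on the shNC axis (median 0.09).

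The type I interferon response had the largest median interaction of the program lists, 0.91 log2 units more in shJUP than in shNC. Of its 42 tested genes, all 42 had a difference above 0 within shJUP, but 24 within shNC, with medians of 1.18 and 0.09. An unadjusted interaction p below 0.05 was reached by 24 of the 42, where 6.04% of all genes reached it. MX1, an antiviral GTPase, measured 3.91, 30.6 and 5.2 CPM in shJUP and 10.8, 8.39 and 13.1 CPM in shNC, an interaction of 3.26 (SE 0.35, edgeR adjusted p = 0.18). OAS1, a sensor of double-stranded RNA, measured 2.12, 18.6 and 2.34 CPM and 7.52, 7.44 and 8.05 CPM (3.12, SE 0.33, edgeR adjusted p = 0.18). IFIT1, which binds foreign RNA caps, measured 11.7, 52.8 and 12.1 CPM and 16.7, 15.7 and 19.1 CPM, and ISG15, a ubiquitin-like modifier, measured 5.91, 24.3 and 6.37 CPM and 9.78, 5.21 and 12.9 CPM. In these genes shJUP 2 was above all 5 other libraries, and shNC 2 was the lowest of its group. Over the whole list, the median level relative to the mean of the 6 libraries was -0.58, 0.64 and -0.43 in shJUP and 0.02, 0.18 and 0.18 in shNC.

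In 5 members of the list number 2 was at least 2-fold higher in shNC as well: IFITM1, TRIM22, IFITM2, BST2 and IFITM3. IFITM1, a membrane protein that restricts viral entry, measured 0.391, 37.3 and 1.91 CPM in shJUP and 6.36, 45.7 and 11.3 CPM in shNC. TRIM22, an antiviral ubiquitin ligase, measured 1.12, 11.7 and 1.49 CPM and 5.36, 21.7 and 6.8 CPM. BST2 (tetherin) measured 20.6, 98.3 and 44.7 CPM and 39.0, 102 and 46.2 CPM. Number 2 was the highest library of its group in each, as the definition of concordant requires. The difference was larger within shJUP than within shNC for IFITM1 (5.22 and 2.42) and TRIM22 (3.08 and 1.83), and smaller for IFITM2 (1.19 and 1.74). The interactions of the 5 had edgeR adjusted p from 0.67 to 0.98. The IFITM genes are near-identical copies, so their separate counts are uncertain.

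**Figure D5:**
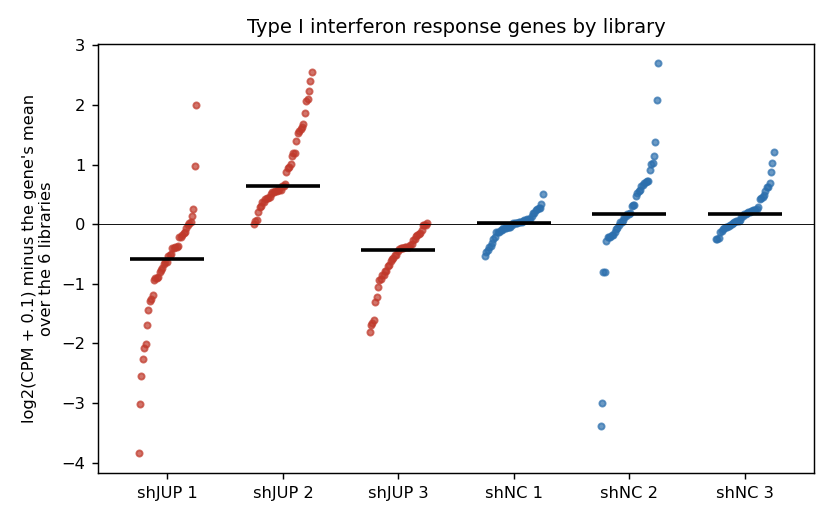
Level of each of the 42 type I interferon response genes in each library, as log2 CPM (pseudocount 0.1) relative to the mean of the 6 libraries; each point is 1 gene, points are sorted within a library, and black bars are medians. The medians are lowest in shJUP 1 and 3 (-0.58 and -0.43), highest in shJUP 2 (0.64), and between 0.02 and 0.18 in the 3 shNC libraries.

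Other genes with the smallest interaction p included junction and matrix proteins. CLDN1, a tight junction protein, measured 343, 572 and 360 CPM in shJUP and 462, 209 and 456 CPM in shNC (interaction 1.84, SE 0.18, edgeR adjusted p = 0.18). THBS1, a matricellular glycoprotein, measured 1300, 880 and 1240 CPM and 2470, 282 and 1920 CPM (2.43, SE 0.25, edgeR adjusted p = 0.18). BMF, a proapoptotic BH3-only protein, measured 5.52, 40.4 and 6.0 CPM and 36.8, 63.8 and 41.9 CPM. IL1R1, the signalling receptor of interleukin 1, measured 26.7, 116 and 31 CPM and 87.7, 118 and 88.6 CPM. For BMF and IL1R1, shJUP 2 was at or near the shNC levels while shJUP 1 and 3 lay far below; for CLDN1 the number-2 libraries were the 2 extremes.

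Fibrillar collagens differed in the opposite sense. COL3A1 measured 5.58, 0.16 and 0.0531 CPM in shJUP and 0.0553, 46.0 and 0.598 CPM in shNC. COL11A1 measured 17.6, 1.6 and 0.425 CPM and 0.332, 37.6 and 1.52 CPM. COL3A1 and COL11A1 were high in shNC 2 and, to a lesser degree, in shJUP 1, so they do not follow the culture number. None of 23 tested collagen chains was concordant. Of the 23, 7 lay above both other cultures in each group and 1 below (25.8% and 26.0% of all genes). The fitted difference was above 0 for 18 and below 0 for 5, with medians of 0.22 within shJUP and 0.79 within shNC. The sum of the 10 fibroblast markers, which include COL1A1 and COL3A1, moved with COL3A1 and COL11A1. It was 270, 49.7 and 12.3 CPM in shJUP and 545 CPM in shNC 2 against 45.2 and 64.0 CPM in shNC 1 and 3. COL1A1 made up most of the sum (253 CPM in shJUP 1 and 401 CPM in shNC 2), 7 of 10 reached 1 CPM in some library, and PDGFRB, FAP and THY1 stayed below 1 CPM in all 6. POSTN measured 44.2 CPM in shNC 2 and at most 1.52 CPM elsewhere, and PDGFRA was highest in number 2 of both groups (2.08 and 3.24 CPM against 0.884 to 1.06 CPM). The part of fibroblast-like RNA in these differences was not tested. The small proteoglycans LUM (1.23, 6.67 and 0.903 CPM; 1.66, 15.5 and 4.41 CPM) and DCN (0.614, 5.87 and 0.743 CPM; 0.553, 7.54 and 2.45 CPM) were concordant higher in number 2.

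JUP itself was highest in number 2 of each group. It measured 39.9, 93.6 and 24.6 CPM in shJUP and 104, 133 and 101 CPM in shNC, so shJUP 2 retained the most of the 3 knockdown cultures, and shNC 2 was the highest control. The number-2 difference was 1.57 log2 units within shJUP and 0.37 within shNC (interaction 1.17, SE 0.37, edgeR adjusted p = 0.68). Within shJUP a weaker knockdown and the culture number cannot be told apart. PDGFB, the growth factor named in the series title, measured 0.614, 1.55 and 0.372 CPM and 1.6, 3.35 and 2.83 CPM.

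With number 2 as a covariate, a fit added after the data were seen, the hairpin term passed an edgeR adjusted p of 0.05 for 65 genes as higher in shJUP (0.41%) and for 109 as lower (0.687%). None remained without shNC 1 or without shNC 3. The fit accounts for number 2 only, and with a replicate block for all 3 numbers 1 gene was called, MMP7. For JUP the hairpin term was -1.27 (SE 0.27, edgeR adjusted p = 0.073), and -1.67 with adjusted p = 0.047 when shJUP 2 was left out. Of the number-2 markers, MMP7 (-2.70, SE 0.20, edgeR adjusted p = 0.015), CFB (-1.17, SE 0.17, edgeR adjusted p = 0.04) and CP (-2.13, SE 0.35, edgeR adjusted p = 0.047) were lower in shJUP than in shNC. With the block the edgeR adjusted p was 0.034 for MMP7, 0.088 for CFB and 0.11 for CP. C3 was not called (0.21, SE 0.39, edgeR adjusted p = 0.80), nor was PTGS2 (-0.81, edgeR adjusted p = 0.13). Of the 17 tested complement genes 6 were called lower in shJUP without the block.

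Values that bear on the libraries themselves were as follows. The number-2 library had the largest total in each hairpin group, 18908278 and 19279514 expected counts, but all 6 lay between 17456121 and 19279514. The 10 most abundant genes took 6.8% and 7.8% of the counts in shJUP 2 and shNC 2, and 5.2% to 6.6% elsewhere. Median number-2 differences over 5 bins of gene GC content with equal numbers of genes ran from -0.04 to 0.08, and over 5 bins of length from -0.03 to 0.01. ERBB2, amplified in SKOV3, measured 4420 and 6910 CPM in number 2 and 2320 to 4390 CPM in the others, KRT8, KRT18 and VIM were present in every library, and CDKN2A was at 0 in all 6. Leukocyte markers summed to 20 to 37.1 CPM, nearly all from CD68, with CD3D, CD3E and MS4A1 at 0 in every library, and number 2 was the highest in each group (37.1 and 32.7 CPM). Endothelial markers summed to 8.05 to 15.4 CPM, mesothelial to 39.0 to 73.3 CPM, and embryonic kidney and neural markers to 32.3 to 57.5 CPM, with number 2 the lowest of its group in the last 2. The part of depth or of other cells in the number-2 difference was not tested.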

How the data were processed

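RNA of 6 SKOV3 cultures (3 shJUP, 3 shNC) was sequenced after oligo(dT) enrichment on a DNBSEQ instrument, per the labels' protocols. The authors deposited 1 table of expected counts per Ensembl gene, not scaled between libraries. The submitters' processing notes name STAR 2.7.9a and RSEM 1.3.3, and also edgeR 3.32.1 and DESeq2 1.26.0, without roles. FPKM values from Cuffdiff, described in the labels' protocols, were not used. Not given in the sources used here are the genome build, annotation release and strand setting. Overlapping and antisense genes therefore cannot be separated. Of 60695 rows, 31 without a gene ID were left out, and 60652 of 60664 genes had a symbol (gene name table, then GENCODE 29). Between 33.9% and 36.3% of the nonzero expected counts were not whole, depending on the library, and all were rounded.

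Counts were fitted in R 4.3.3 with edgeR 4.0.16: filterByExpr, TMM, glmQLFit and glmQLFTest (two-sided), and Benjamini-Hochberg adjustment over 15867 genes. The designs were hairpin plus number 2 (biological coefficient of variation 15.6%) and their interaction (14.7%). The SE is the absolute log2 fold change divided by the square root of F. Within-group differences are log2 CPM with a prior count of 2, with no test. Counting error is the least error these values can have, and total counts were alike between libraries. limma 3.58.1 (voom), DESeq2 1.42.0, other scalings, filters, fold thresholds and prior counts, a replicate block and leaving out each library were alternatives. The edgeR fits of the number-2 contrast and of the interaction were tested on simulated counts with known differences.

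The cultures, markers, gene lists and rule for named genes were chosen with earlier results of these data known. The rule took 5 markers, JUP and PDGFB, the 12 concordant genes of largest fold change in each direction with a mean of at least 5 CPM, up to 4 of at least 100 CPM, up to 4 concordant members per list (or 2 of largest fold change where none was concordant), and the 8 genes with the smallest interaction p, 113 genes in all. One list member is not reported here. The fit of the hairpin term with number 2 as a covariate and 5 further lists were added after the values were seen.

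The library numbers were checked as pairs: deviations from group means correlated between the hairpin groups at 0.14, 0.51 and 0.20 for numbers 1, 2 and 3. Each was over the limit for pairing, though the labels do not say that a number marks a shared batch. The 3 deviations of a group balance each other, so a shared number-2 difference also raises the values for numbers 1 and 3. The 3 values are therefore not separate signs of pairing. Promoters are RefSeq sequences of GRCh38.p14. Length and GC content came from GENCODE 29 for 98.7% of tested genes.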

Additional observations from a re-analysis of the deposited data

Results flagged for a closer look

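For 5 genes the number-2 library was above both other cultures in shJUP and below both in shNC, and the difference between the groups was tested as the interaction of number and hairpin in edgeR. CLDN1, the tight junction protein, had an interaction of 1.84 log2 units. Among interferon-induced genes, IFIT1 had 2.34, OAS1 3.12, MX1 3.26 and ISG15 3.11. None of the 5 passed the adjusted threshold, with edgeR adjusted p of 0.18 for the first 4 and 0.20 for ISG15, and all 5 were called by DESeq2. They were picked for their small interaction p, so their sizes may be overstated. Within shNC, OAS1 and IFIT1 in number 2 were within 0.18 log2 units of the mean of their neighbours (-0.06 and -0.18), and CLDN1 and ISG15 were further below (-1.13 and -1.10).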

How the results depend on the processing

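The count of genes in the number-2 contrast (1866) was 1044 with no filter, 181 without the hairpin covariate and 969 with the replicate block, and 91 to 2339 when each library was left out. Other scalings, a stricter filter and the other 2 tools kept it between 1877 and 2504. The interaction count of 0 became 50 with DESeq2 and 0 to 139 with libraries left out, and could not be fitted without either number-2 library; with the block it was 0. The 503 concordant genes became 851 with no filter, 1580 at 1.5-fold, 129 at 3-fold, and 555 to 672 with 1 of the other libraries left out. The hairpin count of 174 was 44 with no filter, 1 with the replicate block and 0 to 167 with libraries left out. The block's other effects on named genes are among the counts below.

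Leaving out 1 library turned the sign of the number-2 difference for 7 named genes: COL3A1 (-4.07 to 7.10), COL11A1 (-2.48 to 5.33), CLDN1 (-1.13 to 0.71), IFIT1 (-0.19 to 2.15), OAS1 (-0.07 to 3.06), MX1 (-0.51 to 2.75) and ISG15 (-1.13 to 1.98). The hairpin term of C3 ran from -0.22 to 0.61. List medians that changed sign were MHC class II (-0.23 to 0.55), serine proteases (-0.06 to 0.39), keratins and mucins (-0.28 to 0.01), mesenchymal genes (-0.18 to 0.01), fatty acid synthesis (-0.01 to 0.15), glycolysis (-0.13 to 0.33), Wnt targets (-0.11 to 0.23), Notch (-0.05 to 0.20), nuclear oxidative phosphorylation (-0.03 to 0.11) and fibroblast markers (-0.19 to 2.67). The cause was not tested. Of 1571 values for the 113 named genes in the number-2 contrast, 1248 kept direction and side of the threshold, 266 lost the call and 50 gained it. With 1 number-2 library per hairpin group, differences of low genes within a group rest on few counts.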

Other observations

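Ribosome biogenesis factors, a list made after the values were seen, were lower in the number-2 cultures. Of 71 tested genes, 63 lay below both other cultures in each hairpin group and 1 above (26.0% and 25.8% of all genes). The medians were -0.45 within shJUP and -0.39 within shNC, beside 0.0 and -0.01 over all genes. These genes assemble the ribosome in the nucleolus. NOP2, which methylates ribosomal RNA, differed by -0.85 log2 units, UTP20, part of the small subunit processome, by -0.85, and POLR1G, a subunit of RNA polymerase I, by -1.01. Ribosomal protein genes had a median of 0.16, on the other side of 0. Of 22 tested host genes of small nucleolar RNAs, 10 lay below both others in each group and 1 above (26.0% and 25.8% of all genes). SNHG12 differed by -1.14 in shJUP and -1.18 in shNC, and SNHG3 by -1.02 and -1.0.

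Some concordant higher genes are neighbours in the genome. In RefSeq gene order on GRCh38.p14, 14432 tested genes were placed, and 68 concordant genes formed 31 runs of 2 or more adjacent tested genes with the same direction. The run of CGB8 with CGB7 was lower. Of all tested genes 2.55% were concordant higher and 0.624% lower, and how many runs a random order would give was not tested. The longest held GBP1, GBP2, GBP4 and GBP5, guanylate-binding proteins that act against intracellular microbes. Runs of 3 were AKR1C1, AKR1C2 and AKR1C3, then C1S, C1R and C1RL, then IFITM2, IFITM1 and IFITM3, then CRB3, DENND1C and TUBB4A. Pairs included LUM with DCN, IDO1 with TCIM, PTGS2 with PLA2G4A, and TNFSF14 with C3. Families of similar genes share reads, which was not separated from co-location here.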
